A study of Homo sapiens with 2 samples.

Results

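The genes described here are 42 genes of mitosis, the spindle and the kinetochore, read by 58 probes on 2 one-color oligonucleotide arrays that carried 30982 gene names in all. The members were chosen by name, as regulators of entry into mitosis, mitotic kinases, proteins of the spindle checkpoint, proteins of anaphase, chromosomal passenger and centromere proteins, spindle motors and microtubule binders, cytokinesis proteins, MKI67 as a marker of dividing cells and PCM1 of the centrosome. A probe belonged to a member when the gene name on the array was that of the member, and every member was found. CDC2 is the array's name for CDK1.

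Both arrays were hybridized with RNA of Y79, a human line founded from a retinoblastoma, which lacks working RB1 and is grown as a suspension. One condition was siRNA-untreated cells and the other was cells collected 48 h after Ep-CAM siRNA treatment, Ep-CAM being the epithelial cell adhesion molecule, which the arrays name TACSTD1. The methods of the study place both cultures after exposure to AZC, a DNA demethylating agent, and the sample labels do not. There was 1 array per condition, and no array of cells given a nonsilencing siRNA was used here, so an effect of transfection, of the array and of Ep-CAM siRNA cannot be told apart. No test between the conditions was possible, and every value below compares these 2 arrays. The sole TACSTD1 probe had signals of 15.6 and 12.0 and was dim on both arrays, meaning not well above the background, so the arrays cannot show whether the target was lowered. Of 14 retinoblastoma and cone lineage markers on the array, 7 were well above background in untreated cells, and 5 were in siRNA-treated cells. CRX (-0.37), OTX2 (-0.47), GNGT2 (-0.40), ARR3 (-0.21) and INSM1 (0.04) were measured on both arrays, on the log2 scale of treated over untreated, and THRB and ISL1 were dim on the siRNA-treated array. Most listed markers of other cell types were also well above background on each array. They were 5 of 6 for fibroblasts, 4 of 5 for the retinal pigment epithelium, 2 of 2 for glia, 3 of 3 for blood and 3 of 4 for epithelium. A marker was counted where any of its probes was well above background. INSM1, GFAP, AQP4, PTPRC, TYR, COL3A1 and COL6A3 were counted and also had a probe dim on both arrays. The part of these markers in the results was not tested.

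A dividing cell enters mitosis when cyclin B with CDK1 is switched on by the CDC25 phosphatases and by the kinases PLK1 and Aurora A. The spindle checkpoint proteins BUB1, BUB1B, BUB3, MAD1L1 and MAD2L1 sit at kinetochores that lack microtubules and hold back CDC20, the activator of the anaphase-promoting complex. Once all chromosomes are attached, CDC20 and UBE2C bring about the destruction of securin (PTTG1), which frees separase (ESPL1) to cut cohesin. Many of these genes are transcribed late in the cell cycle through promoters that carry a cell cycle homology region, called CHR, and a CCAAT box. In bulk RNA, fewer dividing cells and less RNA per dividing cell cannot be told apart.

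The promoters of the members had this arrangement more often than promoters at large. RefSeq promoter sequences (GRCh38.p14, 250 bases before to 50 bases after the start) were matched for 33 of the 42 members, with 43 start sites between them, some of which overlap. The CHR, written TTTGAA or TTCGAA and searched on both strands, was found in 26 of these 43 promoters (60.5%) and in 16.4% of all 35116 promoters. CCAAT was found in 33 (76.7%) against 34.6%, and both motifs together in 23 (53.5%) against 6.38%. The GGCGG core of the neighboring element, called CDE, was in 97.7% of member promoters and in 59.0% of all promoters. E2F-like letters, taken as TTCCCGC, as TTCGCGC or as TTGGCGC, were in 25.6% against 11.0%. All were searched on both strands, and GGCGG can share letters with TTGGCGC. In 16 members a CHR began within the 50 bases before the start, as it did in 2.73% of all promoters. Of the 33 genes, 3 had neither CHR, CCAAT nor the E2F-like letters in the window, and these were CENPE, KIF2C and MAD1L1.

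Of the following stretches, the first 4 show a CHR with a CCAAT box. MAD1L1 is shown because its probe had the lowest ratio among the members and its window has no CHR, CCAAT or E2F-like letters. Its window does hold GGCGG, and a link between motifs and ratios was not tested. Each stretch holds 100 bases before the start and the first 20 transcribed bases, 5′ to 3′ on the strand of the gene, with CHR and CCAAT on either strand in capitals.
PLK1, chr16:23678789-23678908, plus strand: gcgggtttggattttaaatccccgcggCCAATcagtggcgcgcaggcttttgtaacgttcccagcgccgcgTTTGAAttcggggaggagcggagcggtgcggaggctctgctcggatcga
CCNB2, chr15:59105046-59105165, plus strand: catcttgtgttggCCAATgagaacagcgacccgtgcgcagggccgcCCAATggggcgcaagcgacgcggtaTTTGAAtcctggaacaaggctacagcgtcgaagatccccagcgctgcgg
KIF11, chr10:92593030-92593149, plus strand: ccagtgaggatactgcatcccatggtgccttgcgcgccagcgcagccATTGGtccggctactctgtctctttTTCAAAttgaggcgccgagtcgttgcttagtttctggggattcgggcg
ESPL1, chr12:53268199-53268318, plus strand: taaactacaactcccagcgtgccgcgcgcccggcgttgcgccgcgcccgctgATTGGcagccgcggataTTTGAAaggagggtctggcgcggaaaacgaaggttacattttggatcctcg
MAD1L1, chr7:2232926-2233045, minus strand: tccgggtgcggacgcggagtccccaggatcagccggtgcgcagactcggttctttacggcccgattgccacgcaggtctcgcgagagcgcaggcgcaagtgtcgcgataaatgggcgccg
A match is a run of letters and was not tested as a binding site.

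The mitosis genes as a set lay near the middle of the array after Ep-CAM siRNA treatment. A ratio is the log2 of the siRNA-treated over the untreated signal after each array was divided by its median, and a probe was called higher at 1 or more and lower at -1 or less. Of the 58 member probes, 46 were measured on both arrays, 4 were well above background on 1 array and 8 were dim on both. None of the 50 probes with a reading was called higher, beside 1.27% of the 29396 such probes on the arrays, and 2 were called lower, beside 0.925% of all. The 2 were 1 probe of MAD1L1 and 1 probe of PCM1. Both genes are in the study's own list of lowered genes from these data. RACGAP1, another member, is in its list of raised genes and was not called here. One of its probes was dim on the untreated array, with a bound of 0.60, and the other was dim on both. The members were chosen with earlier results known, so the share called lower is a description and no support for a change. The median ratio of the 46 measured probes was -0.04, and that of all 26975 measured probes was -0.03. The interquartile range of the members ran from -0.13 to 0.22, and that of all probes from -0.18 to 0.12. By 1 probe per gene, the brightest, the 35 measured members had a median of -0.02, and the 20001 named genes on the arrays had the same median of -0.02. Of the measured member probes, 4 (8.70%) were at 0.5 or more, beside 3.92% of all measured probes, and 3 (6.52%) were at -0.5 or less, beside 6.7% of all.

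**Figure D1:**
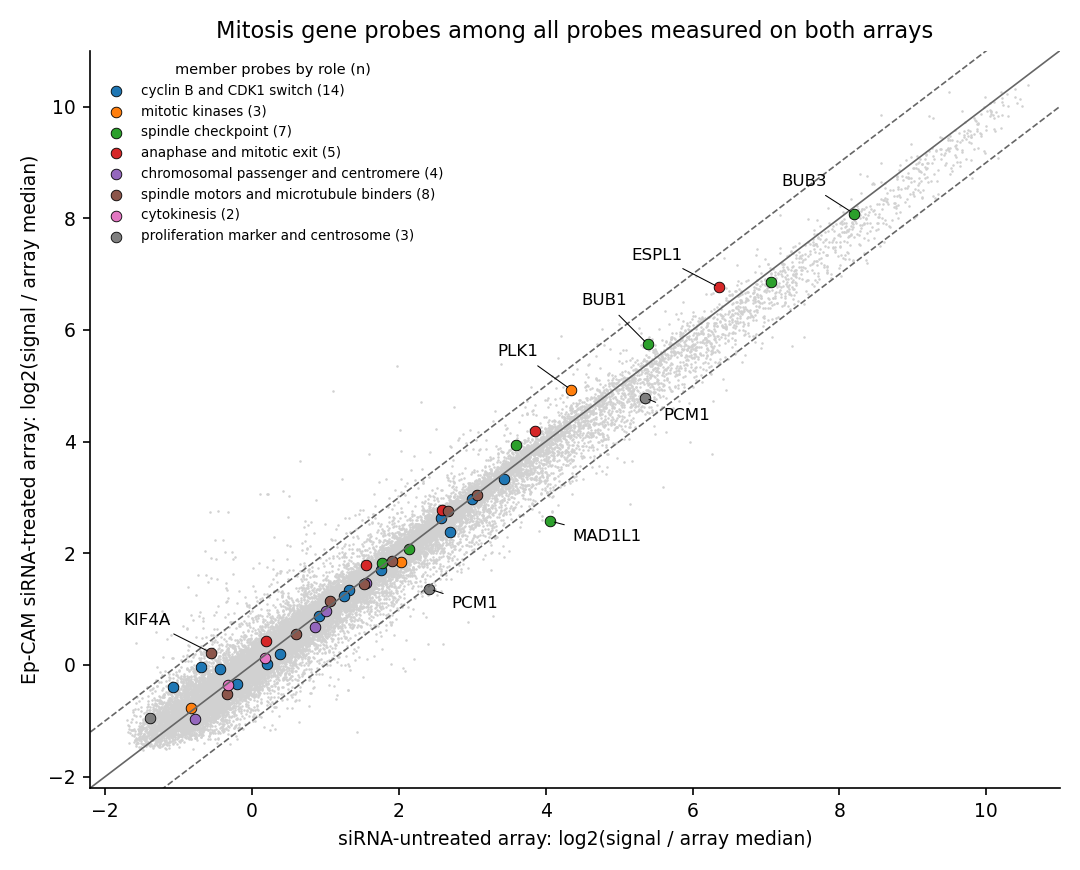
Scaled log2 signal of each probe on the untreated array (x axis) and on the Ep-CAM siRNA-treated array (y axis), each in log2 units over the array median, for all 26975 probes measured on both arrays (gray) and the 46 member probes (colored by role). The solid line marks equal signal and the dashed lines log2 ratios of 1 and -1; MAD1L1 and 1 of the PCM1 probes lie beyond the lower dashed line and no member lies beyond the upper one.

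The technical error of a ratio was read from spots printed repeatedly. Across 193 measured probes with at least 5 usable spots, the SD of the ratio over spots had a median of 0.14. For probes printed 1 time, the error that the scanner software attaches to each signal gave an error of 0.20 to 0.40 on the member ratios measured on both arrays. Both cover the arrays only, and neither holds any spread between cultures. One part of the array, at rows 355 to 532 and columns 43 to 85, had a wider spread of ratios than the rest, with an SD of 0.51 over all measured probes against 0.29 outside it. Of the probes called, 266 of the 372 higher and 108 of the 272 lower were printed there. The corner held 4986 of the 29396 probes with a reading. The median ratio of probes printed 1 time was -0.04 in it and -0.02 outside it. In this corner 7 member probes were measured and had a median of 0.40 with a range from -1.05 to 0.77, while the 34 printed 1 time outside it had a median of -0.04. Its part in the ratios of those 7 probes was not tested beyond these values, and they are named as corner probes below.

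The cyclin B and CDK1 switch, which drives entry into mitosis, had all 14 of its probes measured and none called. The ratios ran from -0.32 to 0.69 with a median of -0.03. CDC2 and CCNA2, the kinase and the cyclin A that precedes cyclin B, were printed 10 times each and gave the tightest readings. CCNA2 had a signal of 292 ± 16.0 (SD over 10 spots) on the untreated array and of 310.5 ± 26.6 on the siRNA-treated array, and its ratio was 0.05 ± 0.07. CDC2 had 117 ± 7.16 and 118 ± 8.06 over 9 spots, a ratio of -0.02 ± 0.08, after a 10th spot in the corner was left out because the software marked it as an outlier. The spots of the 2 arrays overlapped for both genes.

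CCNB1, the main mitotic cyclin, had signals of 56.2 and 50.9, a ratio of -0.18 with an error of 0.25. CDC25B, a phosphatase that activates CDK1, was the brightest probe of the group, with 526 and 505 and a ratio of -0.09. FOXM1, the transcription factor that drives many of the other members, had 391 and 395, and CKS2, a small binding partner of CDK1, had 165 and 163. All 4 differed by less than the scanner error of their ratio. CDC25C, the phosphatase that acts at the entry into mitosis itself, had 30.1 and 48.5, a ratio of 0.66 with an error of 0.29 in a dim probe, and was the highest of the group at a probe on the strand of its gene. Its ratio ran from 0.18 to 0.69 over the ways of processing tried.

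Of the mitotic kinases, PLK1 gave conflicting probes. Its brighter probe had 993 and 1524, a ratio of 0.58, and its dimmer one 199 and 180, a ratio of -0.18, with an error of 0.20 and 0.21. Under normexp the brighter probe had -0.03. AURKB, the kinase of the chromosomal passenger complex, had 27.4 and 29.5. AURKA, the centrosomal Aurora kinase, was well above background in untreated cells only, with 24.2 and 16.5. Its bound was 1.42-fold lower on the siRNA-treated array. That bound was -0.50 on the log2 scale, and its value ran from -0.50 to -0.15 over the ways of processing that read it. TTK, the kinase that starts the checkpoint, had 15.9 and 14.7 and was not well above background on the siRNA-treated array, and no fold could be given. NEK2, a centrosomal kinase, had 3.91 and 4.69 at 1 probe and 4.04 and 4.81 at the other, dim on both arrays.

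In the spindle checkpoint, BUB1 and BUB1B lay slightly above the middle of the array and 1 probe of MAD1L1 far below it, except that BUB1 (-0.35) and BUB1B (-0.28) were below the median of all measured probes (-0.20) under normexp background correction. BUB1, the kinase that recruits other checkpoint proteins to the kinetochore, had 2047 and 2681, a ratio of 0.36 with an error of 0.20. BUB1B, a subunit of the complex that inhibits CDC20, had 592 and 770, a ratio of 0.35 with the same error. BUB3, their binding partner, was the brightest member by untreated signal percentile, and its 3 probes had 14408 and 13513 (a corner probe), 6558 and 5835, and 167 and 178. The 3 ratios ran from -0.20 to 0.06. MAD2L1, the protein that clamps CDC20, was above background on the siRNA-treated array only, with 16.3 and 26.1. It was 1.57-fold higher there, or 0.65 on the log2 scale, a plain ratio to a dim signal and no minimum. That ratio ran from 0.04 to 0.68 over the ways of processing tried.

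MAD1L1, which carries MAD2L1 to unattached kinetochores, had the lowest ratio of the members, at 1 of its 2 probes. That probe read 817 for the untreated culture and 299 for the siRNA-treated one, a ratio of -1.49 with a scanner error of 0.21, which is 2.80-fold lower. Among all measured probes 33 were as low or lower. It was printed outside the corner, and the nearest 50 measured spots had a median ratio of -0.03 with 2 of them at -1 or less. The other MAD1L1 probe had 214 and 210, a ratio of -0.06.

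The group of anaphase and mitotic exit was the one in which every probe lay on the higher side, though none was called, and under normexp background correction, where the median of all measured probes was -0.20, 1 of the 5 was above 0. The ratios ran from 0.18 to 0.40 with a median of 0.24, while 45.0% of all measured probes were above 0. CDC20 had 706 and 915, a ratio of 0.34. UBE2C, the ubiquitin-conjugating enzyme of the anaphase-promoting complex, had 143 and 173, a ratio of 0.24. Securin (PTTG1) had 295 and 343, a ratio of 0.18, which is within its error of 0.21. Separase (ESPL1) had 4017 and 5425 at a corner probe and 55.9 and 67.5 at a probe outside the corner, with ratios of 0.40 and 0.24. The ratio outside the corner is within its error of 0.25, and it ran from 0.04 to 0.27 over the ways of processing tried.

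The chromosomal passenger and centromere genes had 4 probes measured, all between -0.19 and -0.04 and each within its scanner error or spot SD of 0, and 2 of the 4 were above 0 by the series-wide values of the authors and 1 under normexp. BIRC5, the passenger subunit survivin, had 98.9 ± 11.5 and 98.0 ± 10.6 over 10 spots each, a ratio of -0.04 ± 0.17. CENPE, the kinetochore motor, had 144 ± 13.0 and 138 ± 13.8, a ratio of -0.09 ± 0.13. INCENP, the scaffold of the passenger complex, had 28.5 and 25.6, and CENPF, a kinetochore protein, 88.3 and 80.3 at 1 probe while its other probe was dim on both arrays. CENPA, the histone of the centromere, had 3.54 and 4.33 and was dim on both.

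**Figure D2:**
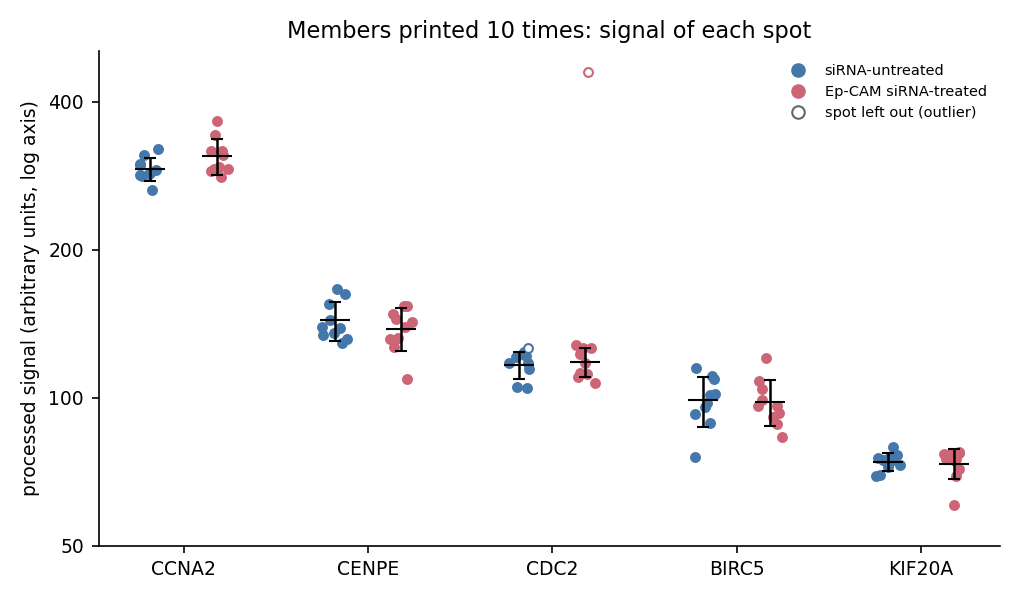
Processed signal of every spot of the 5 members printed 10 times, in arbitrary units on a log axis, with untreated cells in blue and Ep-CAM siRNA-treated cells in red; bars give the mean and SD over spots of 1 array, and open circles are the CDC2 spot left out as an outlier. The spots of the 2 arrays overlap for all 5 genes, and the largest mean ratio is that of CENPE at -0.09.

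Among the spindle motors and microtubule binders, 8 probes were measured, and 7 of them lay between -0.18 and 0.08. KIF2C, which takes microtubules apart at kinetochores, was the brightest, with 408 and 412. KIF23, a motor of the central spindle, had 310.5 and 336, and KIF20A, another one, 74.0 ± 3.13 and 73.4 ± 5.25 over 10 spots. KIF11, the motor that pushes spindle poles apart, had 102 and 111 at 1 probe and was dim at the other. PRC1, which bundles central spindle microtubules, had 184 and 183, and TPX2, which activates Aurora A, 140.1 and 136. NUSAP1, a microtubule binder, had 38.6 and 34.8 at a corner probe. KIF4A, the chromosome-bound motor, stood apart at 33.3 and 58.2, the highest ratio of the members at 0.77 with an error of 0.31, and was a corner probe with 8 of its nearest 50 measured spots at 1 or more and none at -1 or less. Its ratio ran from 0.31 to 0.80 over the ways of processing that read it.

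Of the cytokinesis genes, ECT2, the exchange factor that activates RhoA at the cell equator, had 39.0 and 39.0 at 1 probe and 55.4 and 54.7 at another, with ratios of -0.03 and -0.05, while the remaining probe was dim. RACGAP1, the partner of ECT2 and KIF23, had 10.1 and 23.2 at 1 probe and was above background in siRNA-treated cells only. Its bound was 1.52-fold higher there, or 0.60 on the log2 scale, and ran from 0.19 to 0.64 over the ways of processing tried. Without the filter on dim probes its ratio was 1.17, and the study lists the gene as raised. Its other probe was dim on both arrays. ANLN, the scaffold of the contractile ring, had 3.45 and 4.28 and was dim on both.

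MKI67, the marker Ki-67 of dividing cells, had 18.6 and 25.9, a ratio of 0.44 with an error of 0.38 at a dim corner probe. That ratio ran from 0.04 to 0.48 over the ways of processing that read it. PCM1, the scaffold of centriolar satellites, was the member with both measured probes at -0.5 or less. The brighter one, outside the corner, had 1997 and 1380, a ratio of -0.57 with an error of 0.20. The other one had 260.4 and 129, a ratio of -1.05 with an error of 0.21, and was a corner probe whose nearest 50 measured spots had a median of 0.01 and none at -1 or less. It was the PCM1 probe called lower, at 2.07-fold, just beyond the threshold, and the call was lost by the series-wide values of the authors (-0.84) and by normexp without 1 spot dimmer than its background (-0.83), the latter chosen after seeing the data. Without the corner this probe is not read, and the brighter one ran from -1.15 to -0.36 over the settings.

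**Figure D3:**
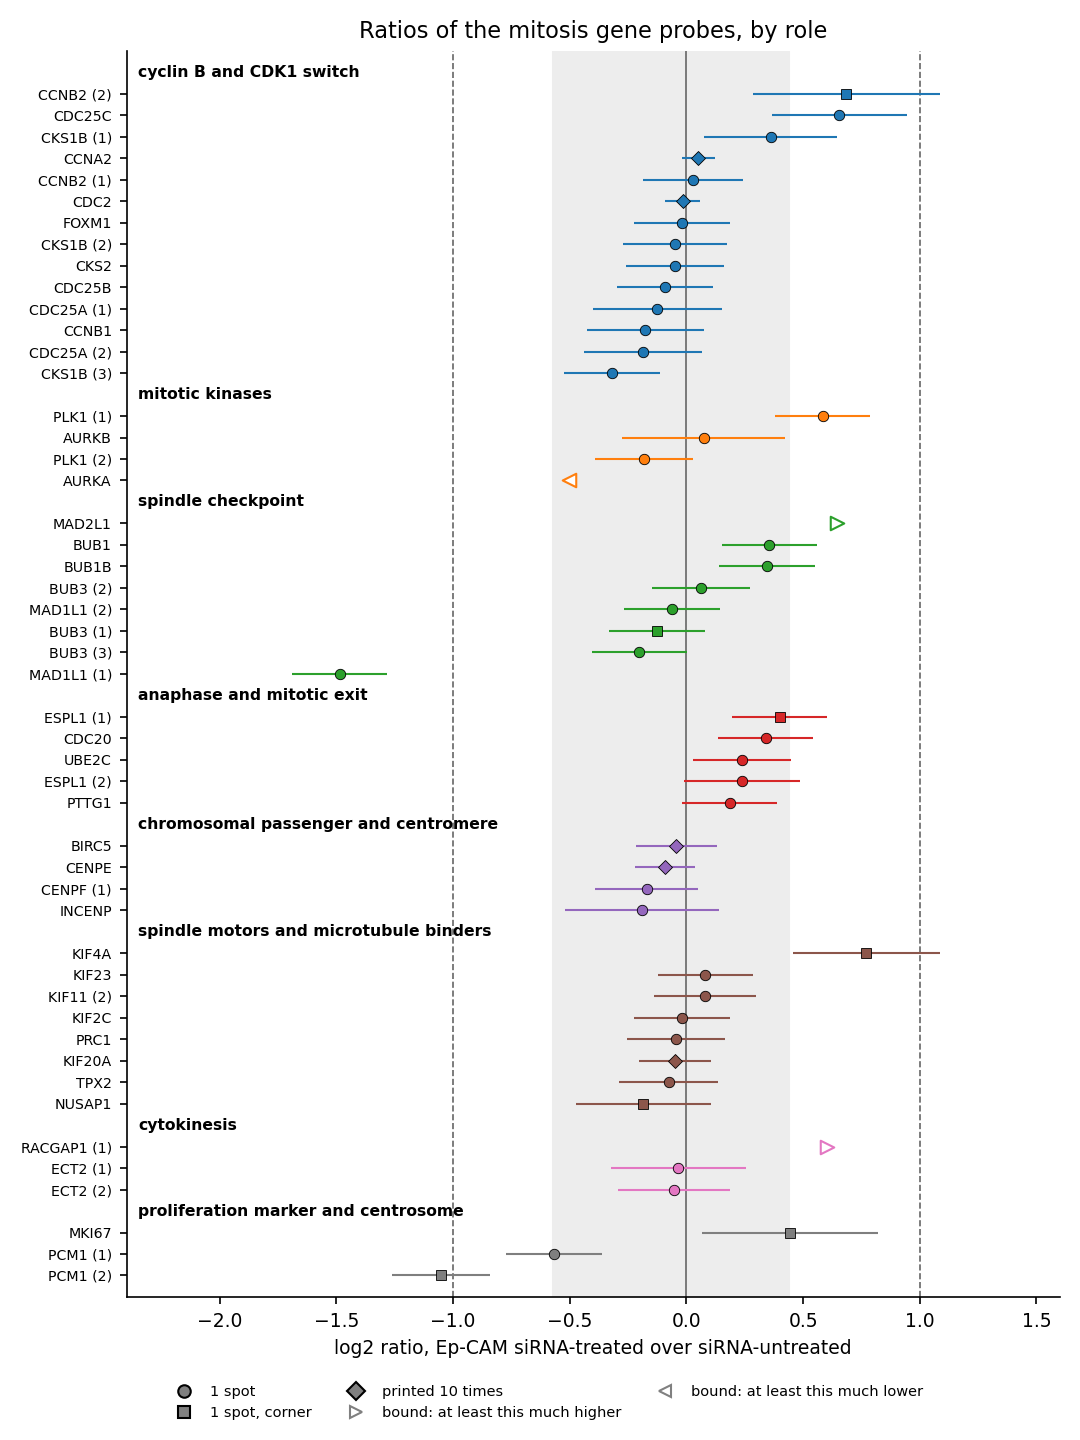
Log2 ratio of each member probe with a reading (x axis), siRNA-treated over untreated, grouped by role, with the number of the probe in parentheses for members with several. Bars are the scanner error for probes printed 1 time and the SD over spots for those printed 10 times, the shaded band holds the central 90% of all measured probes (-0.57 to 0.44), and most members lie in it, with MAD1L1 (1) at -1.49 the farthest outside. Open triangles are bounds, of which that of MAD2L1 is its plain ratio and no minimum.

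Probes of the same gene share the RNA and the array, and they show how far a ratio depends on the probe. In 9 members more than 1 probe was measured. Their ratios differed by a median of 0.48, beside a median of 0.26 over the 3962 named genes with several measured probes. The 9 include MAD1L1 and CCNB2, each with a probe on the strand opposite to its gene. Both of these genes differed by more than 0.48, so the 2 medians do not show that probes of the members disagreed more than usual. ECT2 (0.02), CDC25A (0.06) and ESPL1 (0.16) agreed closely. CDC25A, the phosphatase that also acts at the start of DNA replication, had 42.3 and 39.7 at 1 probe and 63.4 and 57.1 at the other. The probes of BUB3 differed by 0.27 and those of PCM1 by 0.48. CKS1B, the other CDK1 partner, spread over 0.68, with 36.1 and 47.4, 92.3 and 91.4, and 317 and 260.3 at its 3 probes, so that the dimmest probe lay above 0 and the brightest below. PLK1 differed by 0.77 and CCNB2 by 0.66. MAD1L1 differed by 1.43, and 60 of the 3962 genes differed as much or more.

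The probes of MAD1L1, CCNB2 and PLK1 are shown as pairs whose readings conflicted, 2 of which include a probe on the strand opposite to the gene. Their 60 bases lie where the array design places them on hg17, and the first 30 bases are printed, 5′ to 3′.
MAD1L1 probe 1, ratio -1.49, chr7:1711170-1711229, minus strand: cagcggctcaaggaggttttccagaccaag
MAD1L1 probe 2, ratio -0.06, chr7:1661775-1661834, plus strand: ctcaataggacagcctccttctcacactat
CCNB2 probe 1, ratio 0.03, chr15:57204431-57204490, plus strand: ttgattttgtacatagtcctctggtctatc
CCNB2 probe 2, ratio 0.69, chr15:57202412-57202471, minus strand: tgtgtagttaagcaccaaacagcagagaga
PLK1 probe 1, ratio 0.58, chr16:23608471-23608713, plus strand: cggcagcgtgcagatcaacttcttccagga
PLK1 probe 2, ratio -0.18, chr16:23609129-23609188, plus strand: ctattgaattcggaactgtcctttccttgg
MAD1L1 lies on the minus strand of its chromosome, so its probe 1 has the strand of the gene and its probe 2 the opposite strand, 49.3 kb farther along the gene, and the array design names probe 2 after a cDNA clone and not after the RefSeq transcript. CCNB2 lies on the plus strand, and its probe 2, also named after a cDNA clone, has the opposite strand and is a dim corner probe, with 23.1 and 38.1, while its probe 1 had 122 and 127. The strand opposite to the gene was found for 2 of 45 member probes with a known strand, 106 of 18817 probes that carry a RefSeq accession and 104 of 1765 probes that carry another identifier and a gene symbol. Both PLK1 probes have the strand of the gene. The 60 bases of PLK1 probe 1 are spread over 243 bases of the genome, and probe 2 lies 0.416 kb downstream in 1 unbroken stretch. Whether a probe lies in an exon, an intron or a UTR was not read, since no annotation of hg17 was used here.

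**Figure D4:**
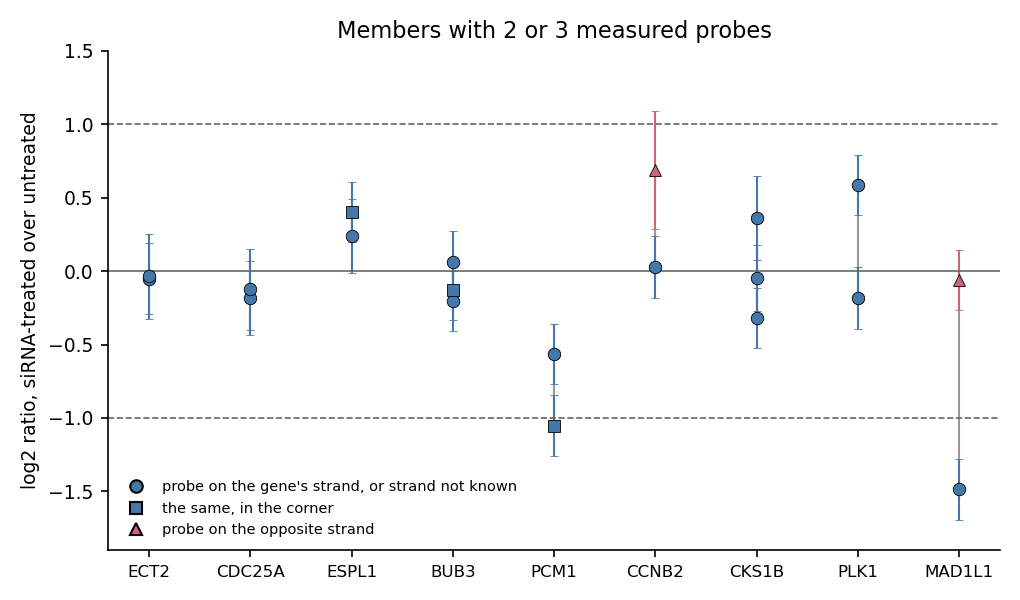
Log2 ratio (y axis), siRNA-treated over untreated, of each measured probe of the 9 members with 2 or 3 measured probes, ordered by the spread between their probes, with the scanner error as bars; squares are corner probes and red triangles are probes on the strand opposite to the gene. The probes of ECT2, CDC25A, ESPL1 and BUB3 lie close together, and those of MAD1L1 are 1.43 apart.

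The motifs in the promoters can be set beside the ratios. The 20 measured members with a CHR in a promoter had ratios from -0.32 to 0.77 at their brightest probe, with a median of 0.05, and the 9 without one had ratios from -1.49 to 0.18, with a median of -0.05. The low end of the second group is MAD1L1. For the E2F-like letters the order was the other way, with a median of -0.09 over 7 measured members with them and 0.06 over 22 without. For CCAAT the medians were 0.03 over 25 members with it and -0.05 over 4 without. None of these differences was tested.

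A wider list of 102 other genes of mitosis was read in the same way. The array held 100 of them with 155 probes, and 97 of these probes were measured on both arrays. Of the 105 probes with a reading 3 were called higher, beside 1.27% of all probes, and none was called lower, beside 0.925%. The median ratio of the measured probes was -0.07. All 3 called probes were corner probes. CDC14B, a phosphatase, had 343 and 818, a ratio of 1.22. KIF15, a spindle motor, had 56.1 and 120.2, a ratio of 1.06. PDS5B, a cohesin-associated protein named APRIN on the array, had 26.7 and 132, a ratio of 2.27, at 1 probe, while its other 2 probes had -0.53 and -0.62. By the brightest measured probe of each gene, CDC14B, KIF15 and CLASP2 (0.70), a stabilizer of microtubule ends, were the highest. The lowest were MAPRE1 (-0.74), a microtubule end-binding protein, with 1357 and 830.1 outside the corner, SEPT7 (-0.67), a septin, with 12353 and 7975 at a corner probe, and PDS5B (-0.62), with 789 and 525 outside the corner. SEPT7 also had -0.41 and -0.30 at 2 probes outside the corner. By complex, the medians ran from -0.25 for the 10 measured cytokinesis probes and -0.20 for the 11 of the centrosome to 0.29 for the 11 of the spindle, and neither the 10 probes of the outer kinetochore (-0.13) nor the 5 of condensin (-0.09) held a called probe. The 10 cytokinesis probes came from 5 genes. Those of SEPT7 and RHOA, each with several, ran from -0.71 to -0.21, and those of the other genes from -0.13 to 0.38.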

How the data were processed

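Expression was measured on 2 one-color Agilent arrays of 1 slide, 1 per condition. The authors converted the scans with Agilent Feature Extraction (9.5.3.1 by the file header) into a deposited intensity per spot, background-subtracted and not scaled between arrays. Their series-wide values, within 0.5 of the raw median intensity at all 40736 probes printed 1 time, were tried instead. Here control spots and those marked as outliers were dropped, the intensity was divided by the 50th percentile of the array (48.9 untreated, 50.0 siRNA-treated), values under 0.01 were set to 0.01, log2 was taken and the spots of a probe were averaged (pandas 2.3.3; limma 3.58.1 for normexp). A probe counted as above background if 50% or more of its spots had the flag of the software (70.4% and 68.0% of spots). A probe dim on 1 array has a bound. It is set against the lowest signal well above background there (14.9 and 17.5), or against the probe's own signal where that is higher. A probe dim on both arrays has no ratio. No member was saturated. The deposited files are those of 2 samples, so no test was run, and precision is limited by their number. The calling code was tested on simulated data. Strands came from RefSeq promoters (GRCh38.p14), and probe positions from the array design (hg17).

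The members and lists were chosen with earlier results of these data known, as was the corner of the array. Values are given for every member probe past the threshold, the highest and lowest members, members with several measured probes, the brightest of each role and those dim on both arrays. Of the wider list, the called probes and the 3 highest and 3 lowest genes are named. Alternatives were other scalings, normexp with an offset of 50, the series-wide values, a floor of 5, other filters and thresholds, and the arrays without the corner. Leaving out opposite-strand probes and the normexp fit without a spot dimmer than its background were added after seeing the data. Protein sequences were not analysed here.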

Additional observations from a re-analysis of the deposited data

How the results depend on the processing

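The median of the members kept within 0.14 of its value under the other scalings, a floor of 5, the gene-level readings and without the corner. Under normexp it was -0.28, where the median of all measured probes also fell, to -0.20, and without 1 spot dimmer than its background, a choice made after seeing the data, both were -0.02. The count of members called lower was 1 in place of 2 without the corner, by the brightest probe of a gene, by the series-wide values and by normexp without that spot, and the remaining one was MAD1L1 each time. It was 3 under normexp, where the brighter PCM1 probe had -1.15. PCM1 had -0.84 by the series-wide values. The MAD1L1 ratio ran from -1.81 to -1.34 over all settings. With no filter on dim probes the count called higher was 1, a RACGAP1 probe at 1.17. The count higher was 5 at a linear ratio, not log2, above 1.5, and the count called lower at a linear ratio below 0.55 was 2. On the wider list the count called higher was 0 without the corner and under normexp, where 7 were lower, and 1 by the series-wide values. Of 433 ratios of single member probes under the alternatives, 364 moved by less than 0.14 and 69 by more, 39 of these under normexp. The chromosomal passenger probes, all below 0, had 2 of 4 above 0 by the series-wide values and 1 of 4 under normexp.

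No paired analysis was possible because there was 1 array per condition. Dim probes limited the reading, as 8 of 58 member probes were dim on both arrays, among them every probe of ANLN, CENPA and NEK2, and the TTK probe gave no bound.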
